A study of Rattus norvegicus with 12 samples.

Results

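Elastic fibres give the lung its recoil. They are built from a core of elastin on a scaffold of fibrillin microfibrils, and the genes of their assembly were followed here across the 4 groups of a rat model of chronic obstructive pulmonary disease (COPD). The set holds 10 genes, chosen by name for their place in elastic fibre assembly: Eln, Fbn1, Fbln5, Efemp2, Lox, Loxl1, Emilin1, Mfap4, Mfap5 and Ltbp4. No cut on measured values was used, but earlier results of these data were known when the set was chosen. The genes were read by 12 probes, Eln and Emilin1 by a pair of probes each, out of 30367 probes for rat transcripts on the array. All 12 were detected, among 21239 detected probes in all, which stand for 11331 genes with a symbol.

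Total RNA of the left upper lung lobe from male Sprague-Dawley rats aged 8 to 12 weeks was hybridised to 12 single-colour Agilent arrays, 3 for each group. The Control group received neither smoke nor endotoxin. The CS+LPS group was exposed to cigarette smoke (CS) up to day 30, with lipopolysaccharide (LPS), a bacterial endotoxin, instilled into the trachea on days 5 and 19. The CS+LPS+NaHS group had the same exposure and also sodium hydrosulfide (NaHS), a donor of hydrogen sulfide, and the CS+LPS+PPG group had the same exposure and also propargylglycine (PPG), which inhibits cystathionine-γ-lyase, an enzyme that makes hydrogen sulfide. The comparisons ask how the model, and then a supply of hydrogen sulfide or a block of its synthesis in the model, went with gene expression. No group received NaHS or PPG without smoke and endotoxin, so their effect in healthy lung was not measured.

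In the assembly of a fibre, tropoelastin, the product of Eln, is secreted and gathers on microfibrils, whose backbone is fibrillin-1 (Fbn1) with the associated glycoproteins Mfap4 and Mfap5. Fibulin-5 (Fbln5) and fibulin-4 (Efemp2) bring tropoelastin and the cross-linking enzymes to the scaffold, and Ltbp4 helps fibulin-5 onto it. The copper enzymes lysyl oxidase (Lox) and Loxl1 then cross-link elastin, and Emilin1 lies where elastin meets the microfibril. Smooth muscle cells, fibroblasts and myofibroblasts make most of these proteins in the lung.

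All values below are processed signals on the log2 scale after each array was brought to a common 75th percentile, so a difference of 1 is a 2-fold change. A probe was called where it changed by at least 2-fold with an unadjusted p under 0.05 in limma, the rule of the study's methods, and calls with a Benjamini-Hochberg adjusted p under 0.05 over the 21239 detected probes are given apart. The 75th percentile of the processed signal lay between 1430 and 2222 on 11 arrays and was 856 on Control replicate 3. That array shared a slide, slide 2, with the 3 CS+LPS arrays, and all other arrays were on slide 1. The comparison of either treated group with CS+LPS therefore lies across slides, where Control replicate 3 is the only link, and the comparison of CS+LPS+PPG with CS+LPS+NaHS lies within slide 1. The summed signal of heart muscle markers was 16.56 on Control replicate 3 and 12.88 and 12.71 on the other Control arrays.

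Eln was lowest in the CS+LPS+PPG group on both probes. The brighter probe lies at chr12:23076983-23077042 and the dimmer one at chr12:23067308-23067449, both matched to NM_012722, with positions from the deposited lists, which name no build. On the brighter probe the Control arrays read 12.80, 13.74 and 13.13, the CS+LPS arrays 12.79, 14.22 and 13.94, the CS+LPS+NaHS arrays 14.07, 13.98 and 14.30, and the CS+LPS+PPG arrays 11.26, 11.99 and 11.69. The 3 CS+LPS+PPG arrays lay below the 9 others without overlap, and CS+LPS replicate 1 lay more than 1 unit below the other CS+LPS arrays. Group means were 13.22 ± 0.48 for Control, 13.65 ± 0.76 for CS+LPS, 14.12 ± 0.17 for CS+LPS+NaHS and 11.65 ± 0.37 for CS+LPS+PPG (SD, n = 3 each).

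On the dimmer probe the Control arrays read 6.61, 7.01 and 7.13, the CS+LPS arrays 5.62, 6.90 and 6.59, the CS+LPS+NaHS arrays 7.22, 7.12 and 7.80, and the CS+LPS+PPG arrays 5.50, 5.59 and 5.67. Here CS+LPS replicate 1 overlapped the CS+LPS+PPG arrays. The order of the groups was the same at both ends, with CS+LPS+PPG lowest and CS+LPS+NaHS highest, but Control and CS+LPS changed places between the probes.

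**Figure D1:**
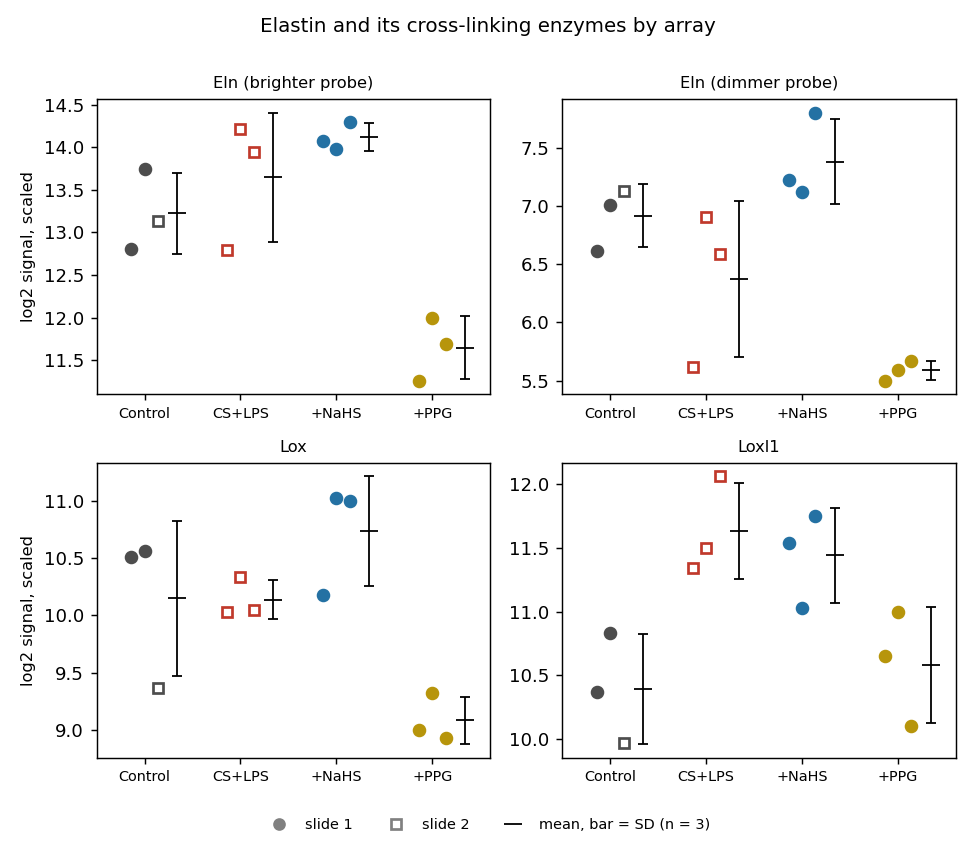
Log2 scaled signal (y axis) of both Eln probes, Lox and Loxl1 in the 4 groups (x axis), 1 point for each array, filled circles for slide 1 and open squares for slide 2, with the group mean and SD beside them. The CS+LPS+PPG arrays lie lowest for the brighter Eln probe, at 11.26 to 11.99, and for Lox, at 8.93 to 9.32. On the dimmer Eln probe they lie at 5.50 to 5.67 and overlap CS+LPS replicate 1, at 5.62. Loxl1 is lowest in the Control group.

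Lox, which starts the cross-linking of elastin and collagen, was likewise lowest in CS+LPS+PPG and highest in CS+LPS+NaHS. Its probe (NM_017061, chr18:47898302-47898361, minus strand, named through the deposited lists) read 10.51, 10.56 and 9.37 in Control, 10.03, 10.33 and 10.05 in CS+LPS, 10.18, 11.02 and 11 in CS+LPS+NaHS and 9, 9.32 and 8.93 in CS+LPS+PPG. The CS+LPS+PPG values lay below all other arrays, though Control replicate 3 came within 0.05 of the highest of them. Loxl1 (NM_001012125, chr8:62088318-62088377, minus strand), a related enzyme bound to elastic fibres, read 10.37, 10.83 and 9.97 in Control, 11.34, 11.50 and 12.06 in CS+LPS, 11.54, 11.03 and 11.75 in CS+LPS+NaHS and 10.65, 11 and 10.10 in CS+LPS+PPG. Loxl1 was thus high in CS+LPS and CS+LPS+NaHS, and the Control and CS+LPS+PPG arrays overlapped.

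Promoter windows of 300 bases across the start of the gene were taken from RefSeq on GRCr8 for the 6 of 10 members it matched (Fbn1, Fbln5, Efemp2, Loxl1, Mfap5 and Ltbp4). The windows of Loxl1, the matched gene that was called, of Ltbp4, which was lowest with PPG without a call, and of Mfap5, which was highest with PPG, are shown because these genes order the groups differently. Each is written 5′ to 3′ on the strand of its gene, with capitals marking GC boxes (GGGCGG) and CCAAT boxes (CCAAT) on either strand. Loxl1 lies on the minus strand at chr8:67612175-67612474, Ltbp4 on the minus strand at chr1:91759758-91760057 and Mfap5 on the plus strand at chr4:157399669-157399968.
Loxl1: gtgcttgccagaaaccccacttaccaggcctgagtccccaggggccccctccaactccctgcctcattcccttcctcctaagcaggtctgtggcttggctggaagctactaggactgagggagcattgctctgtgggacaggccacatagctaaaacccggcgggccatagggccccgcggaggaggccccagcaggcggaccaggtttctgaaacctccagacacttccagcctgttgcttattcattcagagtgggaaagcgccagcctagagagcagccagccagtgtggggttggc
Ltbp4: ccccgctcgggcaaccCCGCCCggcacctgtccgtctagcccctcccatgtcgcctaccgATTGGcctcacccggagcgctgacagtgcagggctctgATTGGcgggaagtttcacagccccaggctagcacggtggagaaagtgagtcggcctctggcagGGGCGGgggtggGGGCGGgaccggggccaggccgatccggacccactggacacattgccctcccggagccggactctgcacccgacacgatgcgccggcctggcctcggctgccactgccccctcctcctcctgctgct
Mfap5: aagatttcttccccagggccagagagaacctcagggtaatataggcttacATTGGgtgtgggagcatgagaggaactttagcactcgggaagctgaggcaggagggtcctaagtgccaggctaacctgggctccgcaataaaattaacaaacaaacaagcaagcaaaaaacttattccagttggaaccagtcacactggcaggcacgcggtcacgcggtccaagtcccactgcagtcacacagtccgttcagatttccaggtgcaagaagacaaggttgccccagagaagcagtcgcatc

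The Ltbp4 window held 3 GC boxes and 2 CCAAT boxes, the Mfap5 window 1 CCAAT box and no GC box, and the Loxl1 window neither. A GC box occurred in 33.1% of the 33469 windows of all genes and a CCAAT box in 12549 of them, both strands counted. None of the 6 member windows held the letters TATAAA, which 14.2% of all windows hold, or the AP-1 motif TGANTCA, which 7.33% hold. These matches describe letters and were not read as binding sites.

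Of the microfibril genes, Fbn1 (NM_031825) read 10.53, 10.06 and 10.34 in Control, 11.14, 10.89 and 10.94 in CS+LPS, 10.63, 10.83 and 10.95 in CS+LPS+NaHS and 10.32, 10.48 and 10.03 in CS+LPS+PPG. Its CS+LPS arrays lay above all Control and all CS+LPS+PPG arrays. Mfap5 (NM_001108644) read 13.60, 14.26 and 13.91 in Control, 14.61, 14.29 and 14.53 in CS+LPS, 14.29, 14.23 and 14.41 in CS+LPS+NaHS and 14.40, 14.52 and 14.75 in CS+LPS+PPG. It was the only member whose highest group was CS+LPS+PPG.

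Mfap4 (NM_001034124) had the widest spread within a group. It read 14.63, 15.23 and 13.02 in Control, 14.92, 14.80 and 14.90 in CS+LPS, 15.30, 15.22 and 15.23 in CS+LPS+NaHS and 14.27, 14.62 and 14.95 in CS+LPS+PPG. The low Control mean came from Control replicate 3, which was also the lowest array for Fbln5, at 9.24, and for the dimmer Emilin1 probe, at 4.90, and only there was that probe not well above background.

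Fbln5 (NM_019153) lay between 9.24 and 10.34 on the Control arrays, between 10.31 and 10.67 with CS+LPS, between 10.32 and 10.74 with CS+LPS+NaHS and between 9.82 and 10.10 with CS+LPS+PPG. Efemp2 (NM_001005907) was the flattest member, between 11.76 and 12.66 over the 12 arrays, and its CS+LPS+PPG arrays read 12.17 to 12.22. Ltbp4 (NM_001170336) lay between 12.72 and 13.52 on the Control arrays, between 12.60 and 13.26 with CS+LPS, between 13.17 and 13.23 with CS+LPS+NaHS and between 12.55 and 12.72 with CS+LPS+PPG.

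Emilin1 (NM_001106710) on its brighter probe read 11.54, 12.07 and 11.65 in Control, 11.88, 11.61 and 12.00 in CS+LPS, 11.92, 11.67 and 11.94 in CS+LPS+NaHS and 11.15, 11.28 and 10.97 in CS+LPS+PPG. These CS+LPS+PPG arrays lay below all others. On the dimmer probe the CS+LPS+PPG arrays, at 5.57 to 6.09, overlapped the Control and CS+LPS arrays.

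**Figure D2:**
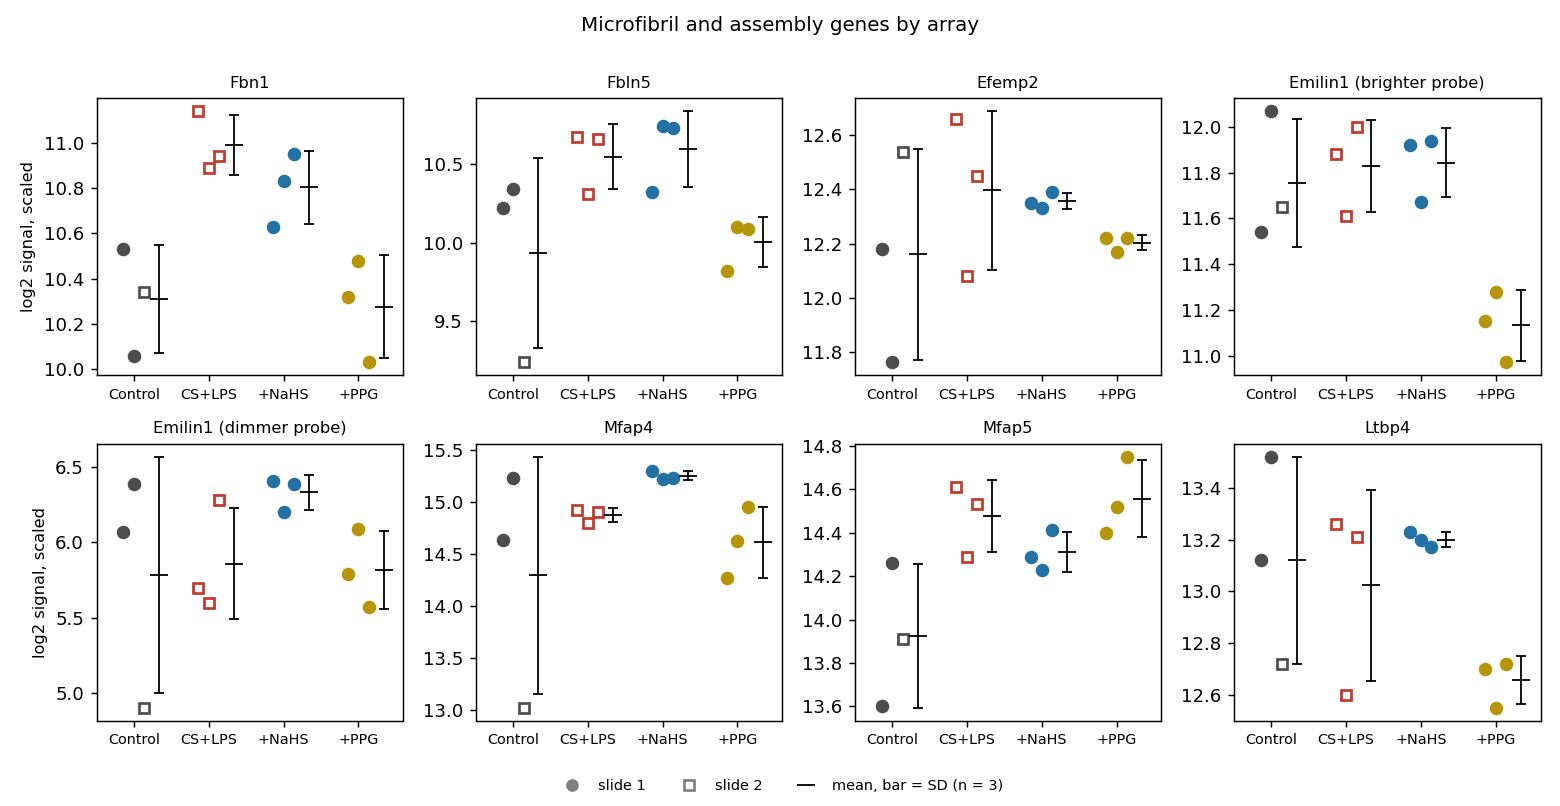
Log2 scaled signal (y axis) of the other 8 probes in the 4 groups (x axis), 1 point for each array, filled circles for slide 1 and open squares for slide 2, with mean and SD. The brighter Emilin1 probe is lowest in CS+LPS+PPG, at 10.97 to 11.28, Mfap5 is highest there, at 14.40 to 14.75, and Control replicate 3 is the lowest array for Mfap4, at 13.02.

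In the direct comparison of the treated groups, CS+LPS+PPG against CS+LPS+NaHS, both on slide 1, Eln, Lox and most of the set were lower with PPG. The brighter Eln probe fell by 2.47 on the log2 scale (SE 0.36, 95% confidence interval -3.26 to -1.68), a 5.54-fold difference with the smallest unadjusted p of all detected probes, 2.8e-05 in limma. The dimmer Eln probe, 3.47-fold lower, had the 2nd smallest, 9.95e-05, and Lox, 3.14-fold lower, the 8th smallest, 0.000335. These 3 of the 12 probes were called lower and none higher, against 0.523% of all detected probes called. With normexp background correction 2 stayed called, the brighter Eln probe and Lox, beside 0.259% of all probes, and the dimmer Eln probe did not. Before scaling, the processed signal of the dimmer probe was 46.18, 49.3 and 48.4 on the CS+LPS+PPG arrays. After Benjamini-Hochberg adjustment in limma 0% of all probes passed, and the adjusted p of Eln and Lox was 0.563, while 1857 probes had an unadjusted p under 0.05.

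The other members fell less between these groups. Loxl1 was lower by a log2 difference of -0.86, the brighter Emilin1 probe by -0.71, Fbln5 by -0.59, Ltbp4 by -0.54 and Fbn1 by -0.53, all with an unadjusted p under 0.05 in limma and all under 2-fold. Mfap4 (-0.64, interval -1.59 to 0.31), Efemp2 (-0.16, interval -0.59 to 0.28) and the dimmer Emilin1 probe (-0.52) did not pass at that level. On 11 of the 12 probes all CS+LPS+PPG arrays lay below all CS+LPS+NaHS arrays, where 12% of all detected probes had that pattern. The exception was Mfap5, at 0.25 with an interval from -0.14 to 0.64.

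Compared with CS+LPS, the CS+LPS+PPG group was again lower in Eln, Lox and Loxl1. The brighter Eln probe differed by -2.00 (SE 0.36, interval -2.79 to -1.21), a 4.01-fold fall with an adjusted p of 0.0383 (limma, Benjamini-Hochberg). The call on this probe held under all 16 alternatives. Its adjusted p ranged from 0.0096 in limma to 0.39 by the methods' t-test, and was under 0.05 in 7 of them. It passed adjustment without CS+LPS replicate 1 (-2.43) and not without any of the other 5 arrays of these groups (-2.18 to -1.72). Lox differed by -1.05 (SE 0.32, adjusted p 0.25) and Loxl1 by -1.05 (SE 0.30, adjusted p 0.219). Of 12 probes 3 were called lower, against 2.05% of all probes called, and 1 passed adjustment, against 0.523%. The median of the 12 probes was -0.62, beside 0.02 over all detected probes.

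Here the dimmer Eln probe fell by 0.78 on the log2 scale (adjusted p 0.392 in limma), short of 2-fold, and with CS+LPS replicate 1 low on both probes. Fbn1 (-0.72, adjusted p 0.122) and the brighter Emilin1 probe (-0.70, adjusted p 0.14) were lower without overlap of the arrays. Mfap5 differed by 0.08, with an interval from -0.31 to 0.47. With slide as a block, which rests on Control replicate 3 alone, 6 probes were called lower, where 19.4% of all detected probes were called. These were the brighter Eln probe (-2.14), Lox (-2.22), Loxl1 (-1.68), Mfap4 (-2.17), Fbln5 (-1.58) and the dimmer Emilin1 probe (-1.38). The dimmer Eln probe was at -0.46 with that block. Loxl1 was no longer called without CS+LPS replicate 3 (-0.84) or without CS+LPS+PPG replicate 3 (-0.81), and Lox not without CS+LPS replicate 2 (-0.96) or CS+LPS+PPG replicate 3 (-0.98), nor with normexp background correction (-0.95). Without the slide block, the dimmer Emilin1 probe differed by -0.04.

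Compared with Control, the CS+LPS+PPG group was lower in Eln on both probes and in Lox, and Mfap5 was higher. The brighter Eln probe differed by -1.58 (SE 0.36, adjusted p 0.0418, limma) and the dimmer by -1.33 (SE 0.30, adjusted p 0.0415). On the brighter probe the adjusted p ranged from 0.0224 in limma to 0.208 by the methods' t-test over 17 alternatives. It was under 0.05 in 6, in none of which an array was left out singly (-1.79 to -1.32 then). Lox differed by -1.06 (SE 0.32, adjusted p 0.0737). Of the 12 probes 3 were called lower, against 4.38% of all probes called, and 2 passed adjustment, against 4.64%. Emilin1 on the brighter probe (-0.62, adjusted p 0.0619) and Mfap5 (0.63, adjusted p 0.0614) differed less than 2-fold. Loxl1, at 0.19 with an interval from -0.47 to 0.86, and Fbn1, at -0.04 with an interval from -0.41 to 0.33, were near the Control level. Without Control replicate 1 or 2, Lox was not called (-0.88 and -0.86), nor without CS+LPS+PPG replicate 3 (-0.99), with normexp (-0.94) or by the methods' t-test. With normexp the dimmer Eln probe also lost its call, and only the brighter Eln probe kept it. Over the 12 probes 6 lay below 0, with a median of -0.01 beside -0.01 over all detected probes. The summed signal of the 10 genes, 1 probe each, had a mean of 16.10 in CS+LPS+PPG and 16.09 in Control. It adds linear signals, so the brightest genes, Mfap4 and Mfap5, weigh most in it, and Control replicate 3 was lowest at 15.67. The dimmer Emilin1 probe differed by 0.03. The 3 comparisons of CS+LPS+PPG share its arrays, so they do not stand as separate evidence.

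Compared with Control, CS+LPS was higher in Loxl1, and Eln and Lox did not pass. Loxl1 rose by 1.24 (SE 0.30, 2.37-fold, adjusted p 0.0621 in limma), the only one of 12 probes called, against 4.56% of all probes, and none passed adjustment, against 2.02%. Fbn1 (0.68), Fbln5 (0.61) and Mfap5 (0.55) had unadjusted p-values under 0.05 but were under 2-fold, and Fbln5 was 0.27 without Control replicate 3. With Loxl1, 4 of the 12 probes had such a p, beside 5360 of the 21239 detected probes. The brighter Eln probe differed by 0.42, with an interval from -0.36 to 1.21, the dimmer by -0.55, with an interval from -1.21 to 0.11, and Lox by -0.01. The brighter probe gave 0.85 without CS+LPS replicate 1 and 0.14 without CS+LPS replicate 2. Within slide 2, where the Control arm is Control replicate 3 alone, 3 member probes were called, beside 22.7% of all probes, and Lox turned to 0.77. Loxl1 stayed called under all 17 alternatives, between 1.03 and 1.66.

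Compared with Control, CS+LPS+NaHS had all 12 probes above 0, with a median of 0.52 beside 0 over all detected probes. Loxl1, at 1.05 (SE 0.30, adjusted p 0.164 in limma), was again the only call, against 2.67% of all probes, and no member passed adjustment, which 0.0989% of all probes did. Eln on the brighter probe (0.89, adjusted p 0.257), Mfap4 (0.96), Fbln5 (0.66) and Fbn1 (0.50) had unadjusted p-values under 0.05. With Loxl1, 5 of the 12 probes had such a p, beside 3638 of the 21239 detected probes. Without Control replicate 3, Mfap4 and Fbln5 were both at 0.32, while Mfap4 was called without Control replicate 1 (1.13) or 2 (1.43) and Eln without Control replicate 2 (1.15). Within slide 1 no member was called, beside 1.97% of all probes, and Loxl1 fell short there at 0.84. It also fell short without Control replicate 3 (0.84), CS+LPS+NaHS replicate 1 (1.00) or CS+LPS+NaHS replicate 3 (0.90).

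Compared with CS+LPS, CS+LPS+NaHS differed on 1 probe only by the call, the dimmer Eln probe, at 1.01 (SE 0.30, adjusted p 0.218 in limma), against 1.7% of all probes called. None passed adjustment, against 0.593%. The brighter Eln probe differed by 0.47, with an interval from -0.32 to 1.26 (0.04 without CS+LPS replicate 1 and 0.75 without CS+LPS replicate 2), and Lox by 0.60, with an interval from -0.11 to 1.30. Fbn1 (-0.19), Loxl1 (-0.19) and Mfap5 (-0.17) were on the other side of 0. The call on the dimmer Eln probe was lost without CS+LPS replicate 1 or without CS+LPS+NaHS replicate 3.

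**Figure D3:**
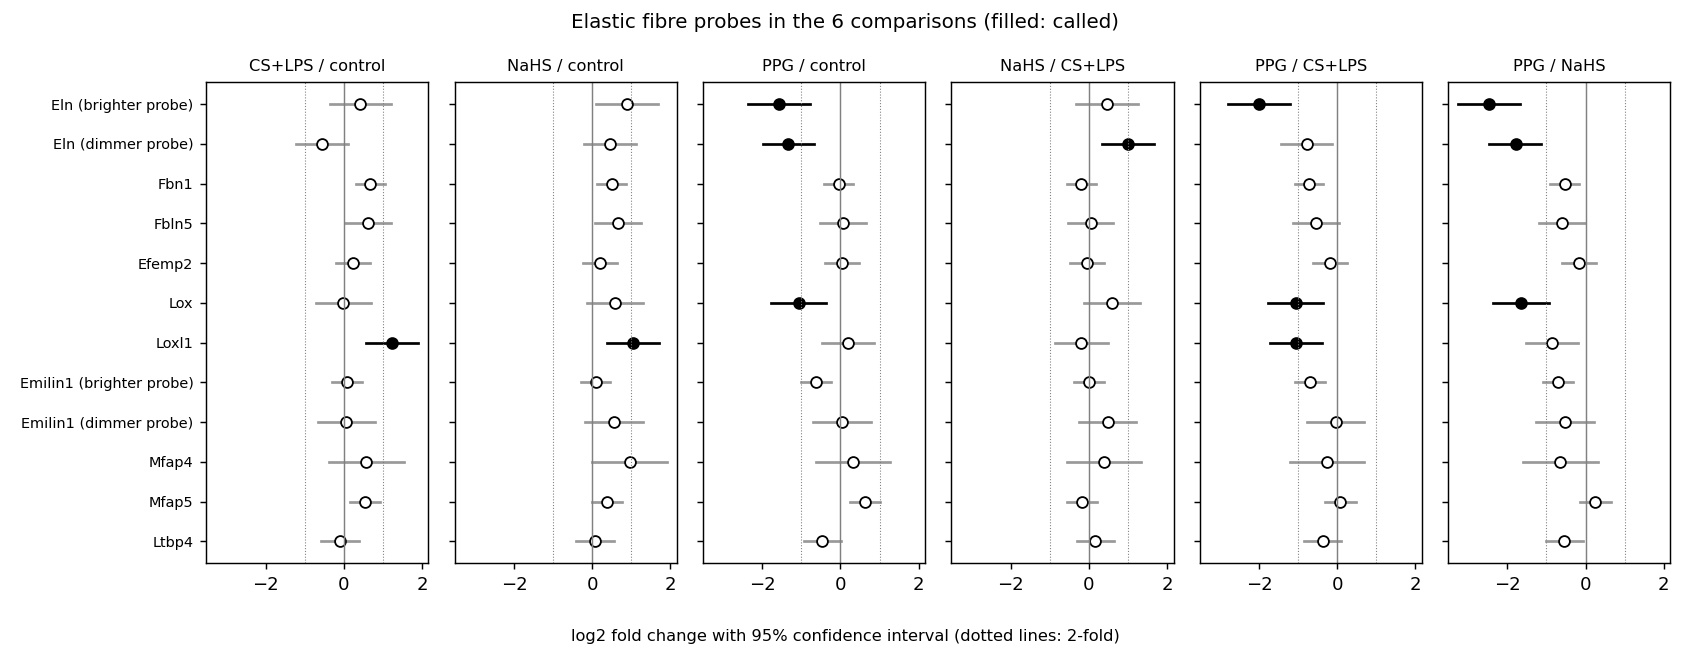
Log2 fold change (x axis, dotted lines at 2-fold) with its 95% confidence interval for the 12 probes (y axis) in the 6 comparisons, filled where the probe was called. Eln lies at -1.58, -2.00 and -2.47 in the 3 comparisons of CS+LPS+PPG, and the only calls above 0 are Loxl1 against Control, at 1.24 and 1.05, and the dimmer Eln probe at 1.01.

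The likeness of each probe to the brighter Eln probe over the 12 arrays was described by Pearson's r, with groups included, so that any probe that differs in CS+LPS+PPG scores high. The dimmer Eln probe reached 0.87, the brighter Emilin1 probe 0.83, Lox 0.83 and Loxl1 0.62, while the dimmer Emilin1 probe had 0.39, Efemp2 0.03 and Mfap5 -0.21. The genes outside Eln with the highest r were Npas2 (0.93), Acsm5 (0.89), C1qtnf6 (0.86), Slc29a1 (0.85) and Unc13d (0.84). With the group means removed, r fell to 0.28 for the brighter Emilin1 probe and 0.26 for Lox, was -0.46 for Fbn1 and -0.67 for Efemp2, and was 0.83 for the dimmer Eln probe. For the 5 genes outside Eln it was 0.71 for Npas2, 0.64 for Acsm5, 0.70 for C1qtnf6, 0.79 for Slc29a1 and 0.85 for Unc13d. These 5 were picked by their r over the same arrays, which includes the deviations within groups. Their values are raised by that choice and cannot be set against those of the members, which were chosen by name.

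The rest of the pathway was described by gene lists, beside the share of all detected probes called. Compared with Control that share was 4.56% in CS+LPS, 2.67% in CS+LPS+NaHS and 4.38% in CS+LPS+PPG. Compared with CS+LPS it was 1.7% in CS+LPS+NaHS and 2.05% in CS+LPS+PPG, and between the treated groups 0.523%. The list of microfibril and fibulin genes outside the set also holds Vcan, Bgn and Dcn. Of its 14 detected genes, 1 was called higher and 0 lower in CS+LPS+PPG compared with CS+LPS, namely Adamts17 (1.20). Adamts17 was also higher in CS+LPS+NaHS compared with CS+LPS (1.27), and lower in CS+LPS compared with Control (-1.16). Compared with Control, CS+LPS+PPG had 1 higher, Dcn (1.49), and 2 lower, Adamtsl2 (-1.48) and Fbn2 (-1.23), the fibrillin of developing tissue. Both were also called lower in CS+LPS compared with Control (-1.09 and -1.13). Fbn2 was dim, with means of 6.13 in Control and 4.90 in CS+LPS+PPG. At an unadjusted p under 0.05 in limma, 7 of the 14 were lower and 2 higher in CS+LPS+PPG compared with Control. There 3 passed adjustment as lower and 2 as higher. Compared with CS+LPS 3 were lower and 1 higher at such a p, and compared with CS+LPS+NaHS 4 lower and 1 higher. Of the 21239 detected probes 6229, 2232 and 1857 had such a p. Of 10 detected genes of other lysyl oxidases and copper supply, 0 were called in CS+LPS+PPG compared with CS+LPS, and 1 was lower compared with CS+LPS+NaHS, Atp7a (-1.29), which delivers copper to secreted enzymes. None of 15 detected genes of TGF-beta signalling was called in any of the 6 comparisons. All 15 lay below 0 in CS+LPS+PPG compared with CS+LPS+NaHS (-0.75 to -0.01, median -0.22). At an unadjusted p under 0.05 in limma, 4 were lower there and 0 higher. Compared with CS+LPS 2 were lower and 0 higher, and compared with Control 3 lower and 0 higher. Among 10 detected enzymes that degrade elastin, 2 were higher in CS+LPS compared with Control. These were the macrophage elastase Mmp12 (1.43, adjusted p 0.0455 in limma) and Mmp9 (1.09, adjusted p 0.153). Mmp9 was dim, with means of 4.55 in Control and 5.65 in CS+LPS. The same 2 were higher in CS+LPS+PPG compared with Control, Mmp12 (1.32) and Mmp9 (1.01), and 1 in CS+LPS+NaHS compared with Control, Mmp9 (1.12). Their inhibitors gave Timp3 lower in CS+LPS compared with Control (-1.32) and none called in CS+LPS+PPG compared with CS+LPS. Timp3 was higher in CS+LPS+NaHS compared with CS+LPS (1.49), and Serpinb1a in CS+LPS+PPG compared with Control (1.04).

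In bulk lung tissue, less RNA of a gene per cell and fewer cells of the type that makes it cannot be told apart, so the levels of marker genes are set beside these results. The lung markers were present, with the summed alveolar type 2 markers between 19.80 and 20.35. None of 11 detected fibroblast markers was called in CS+LPS+PPG compared with CS+LPS or CS+LPS+NaHS, and their summed signal was 16.84 to 17.37 in CS+LPS+PPG, 17.11 to 17.21 in CS+LPS and 17.28 to 17.55 in CS+LPS+NaHS. At an unadjusted p under 0.05 in limma, 2 of them were higher and 3 lower compared with CS+LPS (median 0.01), and 0 higher and 4 lower compared with CS+LPS+NaHS (median -0.26). Of the 21239 detected probes, 2232 had such a p compared with CS+LPS and 1857 compared with CS+LPS+NaHS. None of 9 detected smooth muscle and myofibroblast markers was called in these comparisons or had such a p, with sums of 16.04 to 16.34 in CS+LPS+PPG, 16.04 to 16.92 in CS+LPS and 16.08 to 16.36 in CS+LPS+NaHS. Compared with Control, CS+LPS+PPG had 1 of these 9 called lower, Lmod1 (-1.40), and 2 lower at such a p. All 9 lay below 0 there, from -1.40 to -0.14 (median -0.39). Of the fibroblast markers 1 was called higher there, Lum (1.19), and 1 passed adjustment as lower. At such a p 3 fibroblast markers were higher and 2 lower (median 0.26). Of all detected probes 4.38% were called there, and 6229 had such a p. Of 7 detected endothelial markers 1 was called, Cdh5, lower in CS+LPS+PPG compared with CS+LPS+NaHS (-1.04). Cdh5 was also called higher in CS+LPS+NaHS compared with CS+LPS (1.45) and with Control (1.08). Its means were 10.14 in Control, 9.77 in CS+LPS, 11.22 in CS+LPS+NaHS and 10.18 in CS+LPS+PPG.

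Some markers of other tissue also differed between the groups. The summed heart muscle markers overlapped, at 15.42 to 16.21 in CS+LPS+PPG, 13.38 to 15.85 in CS+LPS+NaHS, 13.71 to 15.78 in CS+LPS and 12.71 to 16.56 in Control. None of 7 detected was called in CS+LPS+PPG compared with CS+LPS or CS+LPS+NaHS, and 1 was called higher compared with Control, Tnnc1 (2.16). Yet all 7 lay above 0 in CS+LPS+PPG compared with each of the other groups. The log2 differences were 0.51 to 2.39 compared with CS+LPS (median 1.77) and 0.34 to 4.26 compared with CS+LPS+NaHS (median 1.9). Compared with Control they were 0.73 to 6.03 (median 2.26). Only Tnnc1 compared with Control had an unadjusted p under 0.05 in limma. The summed fat markers were 13.22 to 13.69 in CS+LPS+PPG, 12.40 to 12.91 in CS+LPS+NaHS and 11.82 to 14.47 in Control. Adipoq, an adipocyte hormone, was called higher in CS+LPS+PPG compared with CS+LPS+NaHS, by 5.45 on the log2 scale. The summed neutrophil markers were 15.09 to 15.80 in CS+LPS+PPG, 14.57 to 15.41 in CS+LPS and 13.69 to 14.49 in Control. Of 6 detected airway epithelial markers 2 were called higher in CS+LPS+PPG compared with CS+LPS, Bpifa1 (6.19) and Scgb3a1 (2.06), and 1 compared with CS+LPS+NaHS, Bpifa1 (4.45). Their sums were 17.95 to 18.46 in CS+LPS+PPG, 17.85 to 18.12 in CS+LPS, 17.86 to 18.19 in CS+LPS+NaHS and 18.09 to 19.15 in Control. The part of these markers, and of the fibroblast markers, in the Eln result was not tested.

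**Figure D4:**
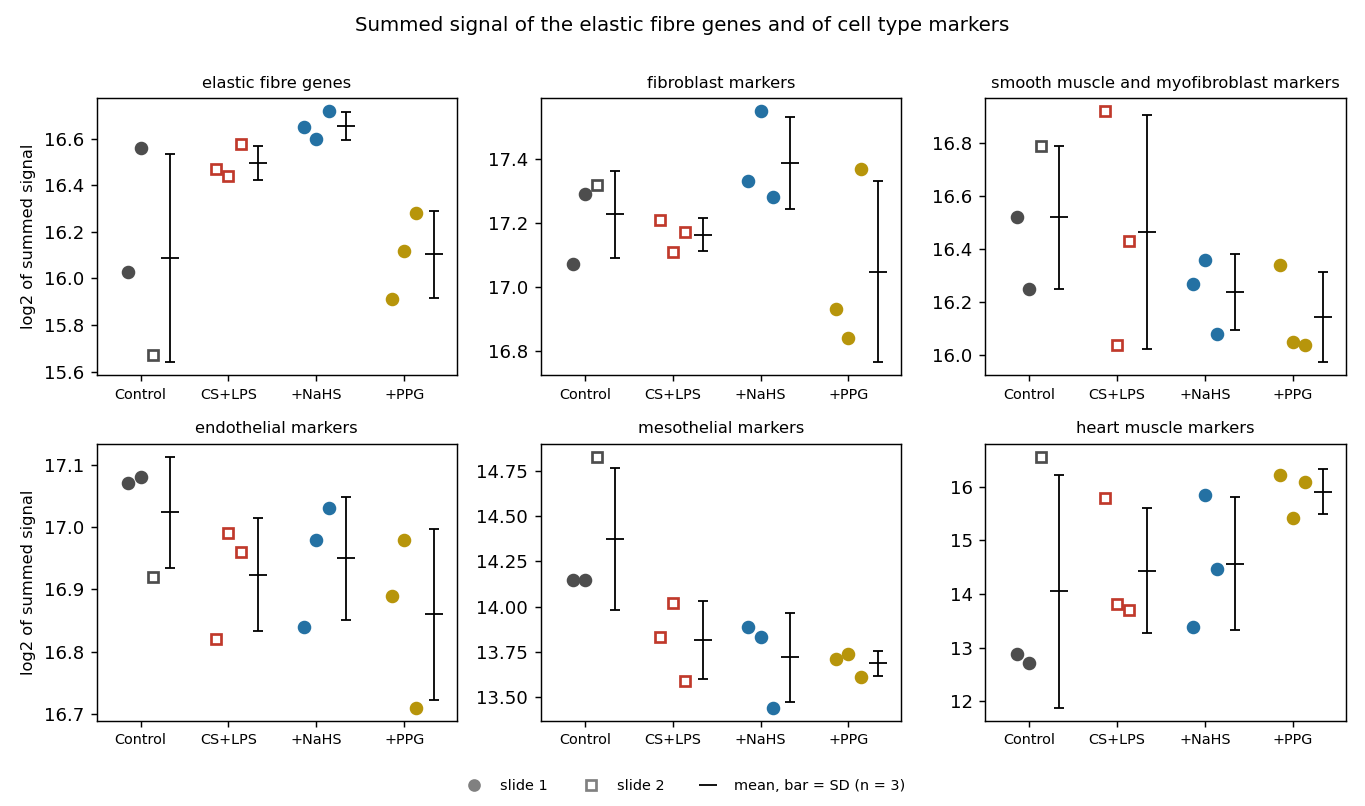
Log2 of the summed signal (y axis) of the 10 elastic fibre genes and of 5 marker lists in the 4 groups (x axis), 1 point for each array, filled circles for slide 1 and open squares for slide 2, with mean and SD. Linear signals were summed, so the brightest genes of a list weigh most. The elastic fibre sum is 15.67 to 16.56 in Control, 15.91 to 16.28 in CS+LPS+PPG and 16.60 to 16.72 in CS+LPS+NaHS, the smooth muscle sums overlap between those groups, and Control replicate 3 stands apart in the heart muscle panel at 16.56.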

How the data were processed

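RNA of the left upper lung lobe was hybridised to 12 Agilent rat arrays in a single colour. The authors deposited Feature Extraction output (10.7.3.1 in the headers), in which the processed signal is a linear intensity after background subtraction, and 5 lists of DE genes. From the lists only probe names and positions were used; the deposited fold changes, p-values and log2 signals, 60 columns, were not. Groups came from the labels. Outlier spots were left out, spots of a probe averaged, log2 taken and the 75th percentile of each array equalised. A probe was detected if well above background on the 3 arrays of at least 1 group. limma 3.58.1 (R 4.3.3) was fitted on all 12 arrays, with 6 comparisons; CS+LPS+PPG against CS+LPS+NaHS was not among the study's. The brighter probe stands for a gene. A call needs a fold change of at least 2 and p under 0.05; adjusted p-values are Benjamini-Hochberg over 21239 probes. Members, gene lists and comparisons were chosen with earlier results of these data known, and every member was named. From other lists, at most the 3 called genes with the largest change were named, and the 5 genes most like Eln. Symbols came from RefSeq for 17514 probes and from the lists for 213; 12640 probes had none. Processed signals on Control replicates 1 and 2 and CS+LPS+NaHS replicate 1 were stored with 3 significant digits. The number of arrays limits the precision, and p-values measure the spread between these arrays. The scripts were tested on simulated data.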

Additional observations from a re-analysis of the deposited data

How the results depend on the processing

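The brighter Eln probe stayed called in the 3 comparisons of CS+LPS+PPG under every alternative run, at -2.43 to -1.72 against CS+LPS, -2.64 to -2.27 against CS+LPS+NaHS and -1.79 to -1.32 against Control. The mean of both Eln probes gave -1.39, -2.13 and -1.45 there. Over all members' fold changes, 928 alternative values kept direction and side of the threshold, 15 fell short of it, 12 passed it newly and 57 changed sign, most of them near 0. The cause of these changes was not tested, and arrays in groups of 3 limit what can be seen.

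Sign changes against the values of the report were these. With quantile normalization Lox was 0.02 in CS+LPS against Control. With normexp it was 0.01, Emilin1 was -0.06 in CS+LPS+NaHS against CS+LPS and Mfap5 -0.01 in CS+LPS+PPG against CS+LPS. With the mean of both probes Eln was -0.06 in CS+LPS against Control. With slide as a block, CS+LPS against Control gave Efemp2 -0.14, Lox 0.77 and Ltbp4 0.30, and within slide 2 the same 3 values. CS+LPS+NaHS against Control gave Ltbp4 -0.12, and CS+LPS+PPG against Control Fbln5 -0.28, Loxl1 -0.02 and Mfap4 -0.32, both with the slide block and within slide 1. Those within-slide fits were chosen after seeing the data. The slide block gave, in CS+LPS+NaHS against CS+LPS, Fbln5 -0.99, Efemp2 0.53, Lox -0.57, Emilin1 -0.14, Mfap4 -1.53 and Ltbp4 -0.42, and in CS+LPS+PPG against CS+LPS Efemp2 0.38.

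With single arrays left out, the range in CS+LPS against Control was -0.40 to 0.20 for Lox, -0.03 to 0.24 for Emilin1, -0.05 to 1.05 for Mfap4, 0.27 to 0.82 for Fbln5, 0.14 to 0.85 for Eln and -0.29 to 0.12 for Ltbp4. In CS+LPS+NaHS against Control it was 0.68 to 1.15 for Eln, 0.32 to 1.43 for Mfap4, 0.32 to 0.87 for Fbln5, 0 to 0.39 for Efemp2, -0.02 to 0.25 for Emilin1 and -0.12 to 0.28 for Ltbp4. In CS+LPS+PPG against Control it was -0.16 to 0.09 for Fbn1, -0.28 to 0.27 for Fbln5, -0.16 to 0.23 for Efemp2, -0.02 to 0.44 for Loxl1 and -0.32 to 0.79 for Mfap4. In CS+LPS+NaHS against CS+LPS it was 0.04 to 0.75 for Eln, -0.07 to 0.19 for Fbln5, -0.20 to 0.09 for Efemp2, -0.34 to 0.02 for Loxl1, -0.10 to 0.10 for Emilin1 and -0.04 to 0.29 for Ltbp4. In CS+LPS+PPG against CS+LPS it was -0.02 to 0.16 for Mfap5.

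The number of member probes called moved to 0 in CS+LPS+NaHS against CS+LPS with quantile normalization, normexp and the methods' t-test, and to 2 with the slide block. It moved to 1 with normexp in CS+LPS+PPG against Control. The slide block gave 3 in CS+LPS against Control, 0 in CS+LPS+NaHS against Control and 6 in CS+LPS+PPG against CS+LPS. Within slide 1, CS+LPS+NaHS against Control gave 0, and within slide 2, CS+LPS against Control gave 3, where 22.7% of all probes were called and the Control arm was 1 array. Leaving out single arrays gave 1 to 2 in CS+LPS against Control, 0 to 3 in CS+LPS+NaHS against Control, 0 to 1 in CS+LPS+NaHS against CS+LPS and 1 to 4 in CS+LPS+PPG against CS+LPS. Replicate numbers did not pair the arrays, since deviations of same-numbered arrays correlated at -0.31 to 0.14. With the replicate number as a block, Eln in CS+LPS+PPG against CS+LPS was -2.00, and the member probes called were 3 there.

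Over all probes, the slide block raised the calls in CS+LPS against Control from 969 to 4831, in CS+LPS+NaHS against CS+LPS from 361 to 4224 and in CS+LPS+PPG against CS+LPS from 435 to 4120. normexp gave 375, 74 and 104 there, and no filter on dim probes 2069, 654 and 852.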
